A study of Sus scrofa with 10 samples.

Results

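The cell cycle and DNA replication genes of the pig hypothalamus were followed across animals that diverge in growth and fatness. The genes were chosen by name: cyclins of the A, B, D and E families, cyclin-dependent kinases (CDK), CDC-named genes, the MCM and ORC replication proteins, E2F factors, centromere proteins (CENP, all but CENPH), Aurora and Polo-like kinases and a few S-phase and mitotic genes. This gave 97 gene rows with 95 distinct names, out of 24951 rows that carried an estimate in both groups. RNA from the hypothalamus of 10 Iberian x Landrace backcross pigs had been sequenced, 5 of high growth and fatness (the high group, or high-growth pigs) and 5 of low growth and fatness (the low group, or low-growth pigs). All animals shared that cross, and neither group was labelled as treated. Age and sex were not given in the sources used here.

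Dividing cells copy their DNA once and then share it between daughter cells. CDKs bound to cyclins drive these steps, E2F factors switch on the genes of DNA synthesis, the ORC and MCM complexes mark and open replication origins, and centromere proteins hold chromosomes to the spindle. In the adult brain neurons no longer divide, and the cells that do are mainly glial precursors, cells of vessels and immune cells, and stem cells of restricted zones. Several genes of these families also have known roles outside division, such as CDK5 in neurons and CDC42 in the cell skeleton.

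Levels are FPKM (sequenced fragments scaled by transcript length and library size), a scale per length on which genes can be compared with each other. For each group the authors deposited 1 FPKM value per gene row together with confidence bounds, which follow each value in parentheses. Values per animal were not analysed here, so no test across animals could be made and the depth of each sample is unknown. A difference is the log2(FPKM + 1) value of the high group less the value of the low one, a scale that shrinks the change of low genes. Rows whose mean over both groups reached 1 FPKM were compared, and these were 15281 of all rows and 67 of the 97 cell cycle rows. The other 30 cell cycle rows are given by level. Over the 15281 rows the median difference was -0.10, and 67.7% had the higher value in the low group. In a bulk tissue, fewer cells of a type and less RNA per cell cannot be told apart.

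None of the 97 chosen rows had intervals that stood apart between the groups. CENPH, left out of the choice, had bounds apart and was past 1.5-fold toward the high group. The bounds overlapped in all 97 rows, while bounds did not overlap in 0.458% of all compared rows (0.432% higher in the low and 0.0262% in the high group). A z value built from the bounds called 0 of 67 rows at 0.05, against 0.211% of all rows with values above 0. A ratio of FPKM + 1 of at least 1.5 was found in 2 of 67 rows (2.99%), against 6.33% of all compared rows. These were CENPB and CDK19, both higher in the low group, where the background was 4.49%. In the other direction the count was 0 of 67, against 1.85%. Neither of them was past 1.5-fold once the groups were put on a common scale, by the median of ratios or by quantile normalization. With the wide bounds behind these values, a row without a call may still differ.

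Small differences toward the low group were common in the whole table. The low group had the higher value in 52 of 67 rows (77.6%), against the 67.7% of all compared rows, and the high group in 15 (22.4% against 32.3%). The median difference was -0.16. After median-of-ratios scaling, which moved the median of all rows to 0.00, the low group was higher in 41 of 67 rows and the median was -0.05. After quantile normalization it was 43 rows and -0.06.

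**Figure D1:**
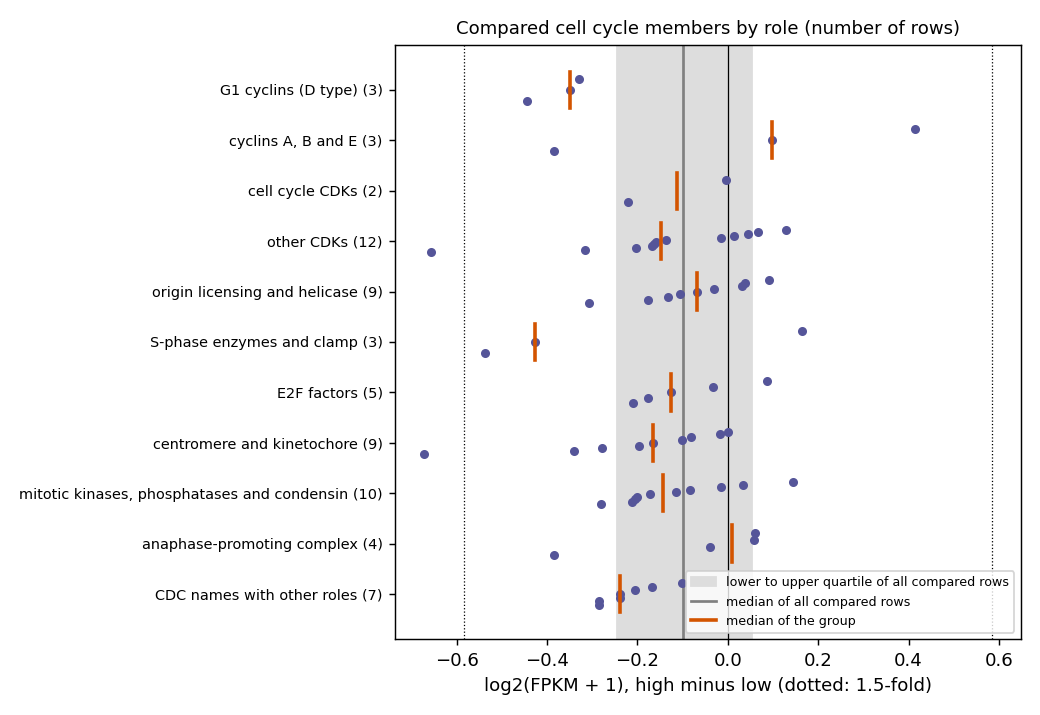
Each point is 1 compared gene row, placed by its log2(FPKM + 1) difference, high minus low, and grouped by role with the number of rows. The shaded band runs from the lower to the upper quartile of all 15281 compared rows, the grey line is their median of -0.10, the orange bars are group medians and the dotted lines mark 1.5-fold. Only CENPB and CDK19 lie outside the dotted lines.

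MKI67 encodes the Ki-67 protein, which is present in cycling cells and lost from resting ones. Its name stands on 2 rows of the file, with very different levels. The row on chromosome 14 (149170561 to 149198585 as the file gives it, build Sscrofa10.2) was at 0.585 FPKM (0.301 to 0.868) in high-growth pigs and 0.784 FPKM (0.376 to 1.19) in low-growth pigs. The row on chromosome 15 (34678355 to 34692425) was at 31.9 FPKM (22.3 to 41.4) and 36.9 FPKM (24.1 to 49.8). The reference table of gene identifiers names the chromosome 15 row, ENSSSCG00000015730, NIFK, a nucleolar protein that binds Ki-67, and gives no symbol for the chromosome 14 row. The chromosome 15 row is not taken as a measure of Ki-67, and MKI67 below means the chromosome 14 row.

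Other names differed between the file and that reference table too. CDC2 is the older name of CDK1 and is written CDK1 below. The row named CCND3 carries the symbol BYSL there, and the row named CDC25C the symbol GFRA3. Of the 97 rows, 70 had a symbol in the reference table and 66 of these had the same name. CDK7 also had 2 rows, at 4.92 against 5.51 FPKM and at 0.171 against 0.216 FPKM (high against low here and below), and only the first is named CDK7 in the reference table.

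Genes transcribed mainly in dividing cells were low in both groups. Such a proliferation core of 36 rows had a median of 0.625 FPKM in high-growth pigs and 0.708 FPKM in low-growth pigs, and 13 of 36 reached a mean of 1 FPKM. The 61 other cell cycle rows had medians of 6.54 and 6.88 FPKM, and 88.5% of them reached that level. For all rows with an estimate the medians were 2.52 and 2.59 FPKM, with 61.2% at 1 FPKM or more. The core was thus placed below the middle of the table and the remainder above it.

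**Figure D2:**
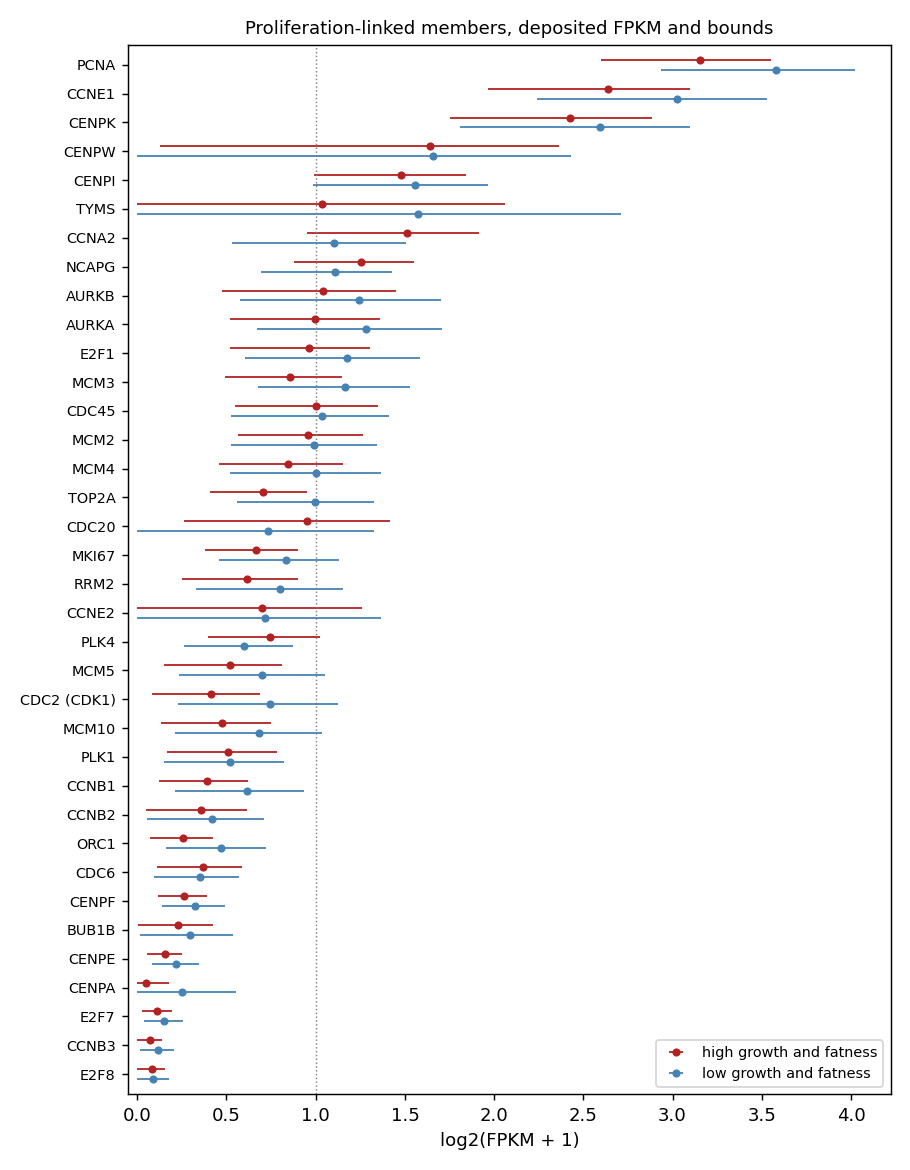
Points are the deposited FPKM of the high (red) and low (blue) group for the 36 proliferation core rows, on a log2(FPKM + 1) axis, and bars run from the lower to the upper deposited bound. The dotted line marks 1 FPKM. PCNA, CCNE1 and CENPK have the highest levels, and the bars of the groups overlap in every row.

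PCNA, the sliding clamp of DNA polymerase that also serves DNA repair, had the highest level of the core. It was at 7.89 FPKM (5.06 to 10.7) in high-growth pigs and 10.9 FPKM (6.66 to 15.2) in low-growth pigs, a difference of -0.43. CCNE1, cyclin E1, which acts at entry into S phase, was at 5.23 FPKM (2.91 to 7.55) against 7.13 FPKM (3.72 to 10.5), a difference of -0.38. For both genes the low group was higher with overlapping bounds. CCNA2, the cyclin A of S phase and G2, differed in the opposite direction, at 1.85 FPKM (0.934 to 2.77) in high-growth pigs and 1.14 FPKM (0.447 to 1.84) in low-growth pigs, a difference of 0.41. It had the largest difference toward the high group among the 67 compared rows, and its bounds overlapped too. It passed 1.5-fold with a pseudocount of 0.1 FPKM.

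Outside the centromere genes, the mitotic genes of the core were near or below 1 FPKM. TOP2A, the topoisomerase that untangles replicated DNA, was at 0.629 FPKM (0.324 to 0.933) against 0.994 FPKM (0.475 to 1.51). CDK1, the kinase of entry into mitosis, was at 0.334 FPKM (0.0584 to 0.609) against 0.676 FPKM (0.173 to 1.18). Its partners CCNB1 and CCNB2 had 0.311 against 0.533 FPKM and 0.283 against 0.336 FPKM. The FPKM of CDK1 was 2.02 times as high in the low group, but the deposited bounds would allow a ratio anywhere from 0.284 to 20.2. AURKA and AURKB, kinases of the spindle and of chromosome attachment, had 0.998 against 1.43 FPKM and 1.06 against 1.37 FPKM. These genes had higher values in the low group, within wide and overlapping bounds.

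Not every mitotic gene followed that direction. CDC20, which activates the anaphase-promoting complex, was at 0.935 FPKM (0.199 to 1.67) in high-growth pigs and 0.664 FPKM (0 to 1.51) in low-growth pigs. PLK4, the kinase of centriole duplication, was at 0.674 against 0.515 FPKM, and NCAPG, a condensin subunit, at 1.38 against 1.15 FPKM. PLK1, a kinase of spindle assembly and mitotic exit, was nearly level at 0.421 against 0.436 FPKM, and the sign of its difference turned under both scalings. BUB1B, a spindle checkpoint kinase, did have the higher value in the low group, at 0.172 against 0.229 FPKM. So did CENPA, the histone that marks the centromere, at 0.0332 against 0.191 FPKM with lower bounds of 0 in both groups. The bounds of the groups overlapped in each of these rows.

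Counted over the whole core, 31 of 36 rows had the higher value in low-growth pigs, 26 on median-of-ratios scaling and 28 after quantile normalization. This was 86.1% of the core, against 63.6% of all rows whose values differed. Among the 13 rows at 1 FPKM or more the low group was higher in 11, and the median difference was -0.20 against -0.10 for all compared rows. None of the 13 was past 1.5-fold.

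The enzymes that supply nucleotides were uneven. TYMS, thymidylate synthase, was at 1.05 FPKM (0 to 3.18) in high-growth pigs and 1.98 FPKM (0 to 5.55) in low-growth pigs, a difference of -0.54. It passed 1.5-fold with a pseudocount of 0.5 or 0.1 FPKM in place of 1. Both of its intervals reached 0, and its locus overlapped 2 other rows. RRM2, the subunit of ribonucleotide reductase made in S phase, was at 0.530 against 0.741 FPKM. RRM1, the large subunit of that enzyme, was at 6.53 FPKM (0.919 to 12.1) against 5.72 FPKM (0 to 12). A row without a name in the file, which the reference table also names RRM1 (ENSSSCG00000014791), was at 13.4 FPKM (9.43 to 17.3) against 13.1 FPKM (8.50 to 17.6), so the reads of RRM1 may be split between rows.

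The replication origin genes differed in level by complex. Within the origin recognition complex, which stays on chromatin and marks origins, ORC4 was highest at 18.0 FPKM (12.2 to 23.7) against 17.4 FPKM (10.8 to 24.1). ORC2, ORC3 and ORC5 lay between 6.18 and 7.90 FPKM in both groups and were not separable by their bounds, while ORC6 was at 2.03 against 2.32 FPKM. ORC1, the subunit whose amount changes over the cell cycle in human cells, was at 0.197 FPKM (0.051 to 0.342) against 0.385 FPKM (0.117 to 0.652). ORC1 made up 0.472% of the summed ORC level in high-growth pigs and 0.899% in low-growth pigs. The order of the ORC genes from ORC4 at the top to ORC1 at the bottom was thus nearly the same in both groups, with ORC3 and ORC5 changing places.

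The MCM2 to MCM7 proteins form the ring that opens DNA at origins, and 4 of them had a row among the members. MCM2 was at 0.939 against 0.988 FPKM, MCM3 at 0.812 against 1.24 FPKM, MCM4 at 0.798 against 1.0 FPKM and MCM5 at 0.433 against 0.624 FPKM. All 4 were higher in the low group with overlapping bounds, and MCM2 turned sign after median-of-ratios scaling. MCM6 and MCM7 were not matched to a row and are not analysed here. MCM8 and MCM9, which act in DNA repair, had 2.44 against 2.24 FPKM and 0.787 against 0.660 FPKM, higher in the high group. Of the loading and firing factors, CDC6 was at 0.293 against 0.277 FPKM, CDC45 at 1.01 against 1.05 FPKM and the kinase CDC7 at 2.26 against 2.51 FPKM. Of the 9 origin and helicase rows compared, 6 were higher in low-growth pigs, 4 on median-of-ratios scaling and 5 after quantile normalization.

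Cyclins of the D type link growth signals to CDK4 and CDK6 at the start of the cycle, and they had the highest levels of the cell cycle cyclins, followed by CCNE1. CCND1 was at 9.0 FPKM (4.12 to 13.9) in high-growth pigs and 11.7 FPKM (4.93 to 18.6) in low-growth pigs. CCND2 was at 6.65 FPKM (2.98 to 10.3) against 9.42 FPKM (3.98 to 14.9). Values of the row named CCND3 were 9.06 FPKM (6.19 to 11.9) against 11.6 FPKM (7.36 to 15.9). All 3 rows were higher in the low group, under both scalings too, with differences of -0.35, -0.44 and -0.33 and bounds that overlapped. Their summed level was 24.7 FPKM against 32.8 FPKM, and CCND1 made up 36.4% and 35.8% of it. The CCND1 row spans only 0.933 kb in the file and the CCND3 row may belong to BYSL, so both levels are uncertain.

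The partners of these cyclins had lower values. CDK4 was at 2.10 FPKM (0.470 to 3.73) against 2.61 FPKM (0.250 to 4.97). Its row lies on an unplaced scaffold and overlapped another row. The bounds of CDK4 met those of CCND2 in both groups and those of CCND1 in the low group. CDK6 was at 0.291 against 0.292 FPKM over a row of 3.61 kb. CDK2, the partner of cyclins E and A, was at 1.41 FPKM in both groups. For CDK2 the deposited bounds would allow a ratio of low to high from 0.231 to 3.82, so equal values do not show equal expression. CDK2 and CDK6 turned sign under both scalings.

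The kinases with roles outside the division cycle held most of the CDK signal. CDK9, the kinase that releases paused RNA polymerase II, was at 44.0 FPKM (31.2 to 56.7) in high-growth pigs and 40.1 FPKM (26.3 to 53.9) in low-growth pigs. It was the highest CDK among the rows named in the file, and 1 of 4 among the 12 compared CDKs with other roles that had a higher value in the high group. CDK5, which with its activators CDK5R1 and CDK5R2 works in neurons, was at 35.0 FPKM (24.2 to 45.7) against 39.2 FPKM (25 to 53.3). CDK9 and CDK5 were not separable from each other by their bounds. CDK16, a row without a name in the file that the reference table names, was at 32.8 against 40.4 FPKM, above both in low-growth pigs. Summed over 20 CDK rows, with CDK1, CDK16 and the likewise unnamed CDK17 included, CDK9 made up 20.1% in high-growth pigs and 16.6% in low-growth pigs. CDK5 made up 16% and 16.2%, whereas CDK4 made up 0.961% and 1.08%. The sign of CDK5 turned after quantile normalization.

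Among the named rows CDK18 and CDK14 followed, at 17.8 FPKM (10.8 to 24.7) against 22.3 FPKM (12.6 to 32.1) and at 16.4 FPKM (10.6 to 22.2) against 19.1 FPKM (11.6 to 26.6). CDK19, a kinase of the Mediator complex that links transcription factors to RNA polymerase II, was at 7.51 FPKM (3.24 to 11.8) in high-growth pigs and 12.4 FPKM (5.18 to 19.7) in low-growth pigs, a difference of -0.66. Its paralog in that complex, CDK8, was at 7.11 FPKM (1.96 to 12.3) against 7.04 FPKM (1.34 to 12.7), a difference of 0.01. Reads of such paralogs can be assigned to either row, which makes both values less certain. CDK7, CDK10, CDK12, CDK13, CDK15 and CDK20 lay between 3.82 and 7.78 FPKM with differences from -0.17 to 0.07.

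**Figure D3:**
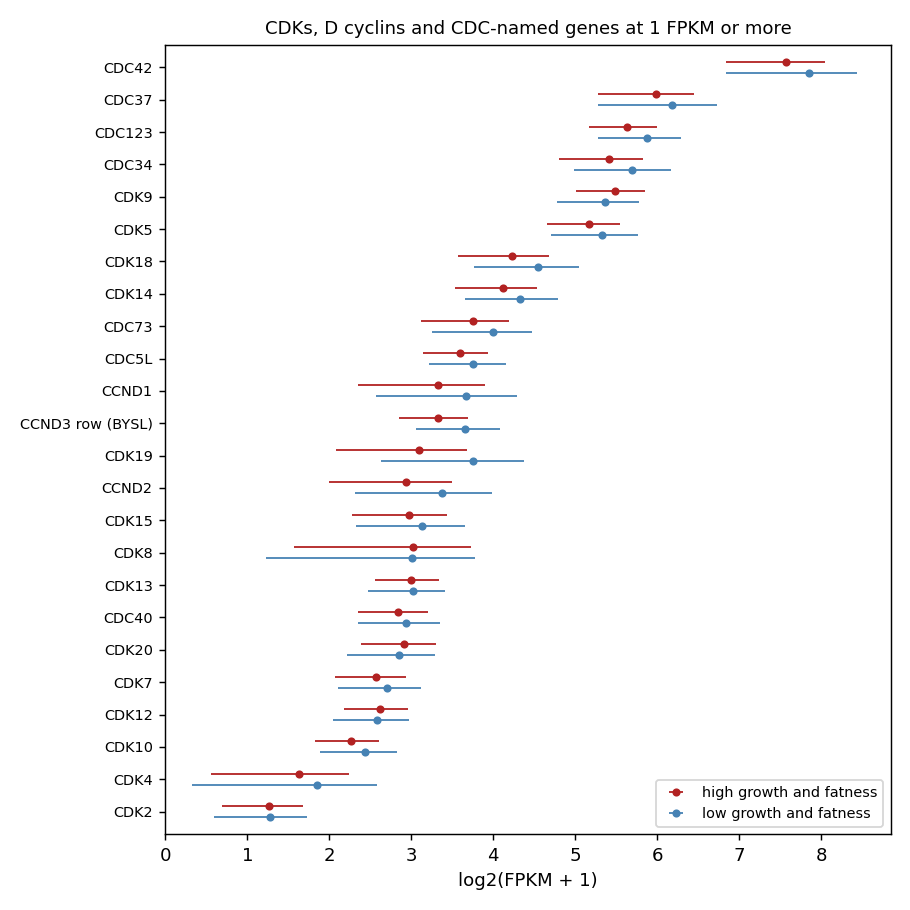
Points are the deposited FPKM of the high (red) and low (blue) group on a log2(FPKM + 1) axis, and bars are the deposited bounds. The rows are CDKs, D cyclins and CDC-named genes grouped by roles beyond division, each with a mean of at least 1 FPKM. CDC42 is highest at 189 and 230 FPKM, and CDK9 and CDK5 are the highest kinases among the rows named in the file. CDK4 and CDK2 are the lowest rows drawn. CDK1, CDK3, CDK6 and the lower CDK7 row had means below 1 FPKM and are left out.

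Besides CENPB (46.6 against 74.9 FPKM), the highest means over both groups belonged to CDC-named genes grouped here by roles beyond division. Such a role does not exclude one in division. CDC42, a small GTPase of the cell skeleton and of neurite growth, was at 189 FPKM (113 to 264) in high-growth pigs and 230 FPKM (114 to 346) in low-growth pigs. CDC37, a partner of the chaperone HSP90, was at 62.1 against 71.7 FPKM, and CDC123, a factor in the assembly of translation initiation factor eIF2, at 48.7 against 57.7 FPKM. CDC34, a ubiquitin-conjugating enzyme, was at 41.5 against 50.7 FPKM. All 7 rows of this kind, with CDC73, CDC5L and CDC40, had higher values in the low group, with differences from -0.28 to -0.10, and 6 of 7 did after median-of-ratios scaling. The 10 highest cell cycle rows, among them the NIFK row, held 63.5% of the summed level of all 97 rows in high-growth pigs and 65.0% in low-growth pigs.

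E2F factors covered a wide range of levels. The repressors E2F4, E2F5 and E2F6 were at 7.94 against 9.10 FPKM, 7.25 against 8.0 FPKM and 8.43 against 8.64 FPKM. E2F3, an activator, was at 3.44 against 3.18 FPKM. E2F1, an activator of S-phase genes, was at 0.952 FPKM (0.432 to 1.47) against 1.26 FPKM (0.518 to 2.0). E2F7 and E2F8, which also repress, had 0.0812 against 0.111 FPKM and 0.0571 against 0.0648 FPKM. E2F1 made up 3.38% of the summed E2F level in high-growth pigs and 4.14% in low-growth pigs. The bounds of E2F1 and E2F4 did not meet within either group.

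Centromere genes spanned a wide range. CENPB, which binds a repeat in centromeric DNA, was at 46.6 FPKM (30.6 to 62.7) in high-growth pigs and 74.9 FPKM (47.0 to 103) in low-growth pigs. This was the largest difference among the 67 compared rows, -0.67, which became -0.56 after median-of-ratios scaling and -0.48 after quantile normalization. The row covers only 0.537 kb of chromosome 17 (36263348 to 36263885) in the file, and the bounds would allow a ratio of low to high from 0.751 to 3.36. CDC25B, a phosphatase that activates CDKs and lies 8.78 kb away, was at 1.99 against 2.37 FPKM, a difference of -0.17. The other 8 compared CENP rows lay between 1.41 and 12.3 FPKM. All 9 had the higher value in the low group, CENPJ by almost nothing (2.38 FPKM in both), and 7 of 9 did after either scaling. CENPH, left out of the choice, and CENPC, in a row without a name in the file (6.02 against 5.91 FPKM), were higher in the high group.

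CENPP was at 4.78 FPKM (0 to 11.4) against 6.31 FPKM (0 to 18.7) in a row that overlapped 6 other rows. PLK3, a stress-responsive kinase, was at 2.42 FPKM (0 to 8.05) against 2.96 FPKM (0 to 12.4) in a row that overlapped 11. PLK2, which is induced by neuronal activity and acts at synapses, was at 5.88 FPKM (3.80 to 7.96) against 5.95 FPKM (3.48 to 8.41). Of the compared rows, 15 overlapped another gene row. In the high group their interval half-width had a median of 52.0% of the value, against 41.5% in the 52 rows without overlap, and it was above 75% in 5 and 1 rows. For all compared rows the median was 39.3%.

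The anaphase-promoting complex is a ubiquitin ligase that is also active in neurons. Of its subunits only 4 with CDC names were compared, and they were split in direction, 2 each way. After median-of-ratios scaling 3 of the 4 had their greater value in high-growth pigs. Their bounds overlapped between the groups, so a median near 0 does not show equal expression. CDC16 was at 8.01 against 7.66 FPKM, CDC27 at 12.1 against 11.6 FPKM and CDC23 at 6.67 against 6.88 FPKM. CDC26 was at 8.88 FPKM (4.26 to 13.5) against 11.9 FPKM (5.28 to 18.5), a difference of -0.38. The median over these 4 subunits was 0.01 (0.11 after median-of-ratios scaling). Besides the A, B and E cyclins (CCNA1, CCNA2 and CCNE1 compared, median 0.10), this was the role group with a median above 0. The lowest row of the whole set was CDC20B, at 0.00147 FPKM in high-growth pigs and listed at 0 in the low group.

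Members lay on 19 chromosomes, with 10 rows on unplaced scaffolds. When each member was paired only with the next one along its chromosome, 9 pairs lay within 1000 kb. The low group was higher for both members in 6 of the pairs, the high group in 1, and 2 pairs were split. Since 75 of all 97 members were higher in the low group, pairs of the first kind would be common at any distance. The counts are therefore not a sign of neighbours changing together. TOP2A and CDC6 lie 73.2 kb apart on chromosome 12, with differences of -0.29 and 0.02, and ORC2 and CDK15 on chromosome 15 had -0.18 and -0.17. CCNB1 and CDK7 start 148 kb apart on chromosome 16, on either side of CENPH, which was at 5.30 FPKM (2.87 to 7.73) against 1.37 FPKM (0.489 to 2.25) with bounds apart. The other rows of that stretch had overlapping bounds and lower values in the high group, with differences of -0.23 for CCNB1, -0.06 for SLC30A5, -0.40 for MRPS36 and -0.14 for CDK7.

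Of the 30 rows below 1 FPKM, 23 had the higher value in low-growth pigs and 7 in high-growth pigs. Of all rows below 1 FPKM whose values differed, 53.0% were higher in the low group. Of the 29 members above 0 in both groups, the FPKM of the low group was at least 1.5 times that of the high group in 7 (24.1%), against 25.8% of all such rows. The reverse held for 0 of the 29, against 21.4%.

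Other genes of the pathway, which were not part of the choice, mostly had small differences as well. For these lists and the marker lists below, the shares over all compared rows serve as background. The low group was higher in 67.7% as deposited, 49.9% after median-of-ratios scaling and 50.5% after quantile normalization, and 6.33% were past 1.5-fold as deposited. Of 23 compared rows of other replication genes (27 of 30 symbols had a row), such as polymerase and GINS subunits, 22 were higher in the low group, 19 after either scaling, and 0 were past 1.5-fold. Of 14 compared rows of other mitosis genes 13 were higher in low-growth pigs, 11 on median-of-ratios scaling, with a median of -0.28. CKS2, a CDK-binding protein, was the 1 row past 1.5-fold, at 0.778 FPKM (0.337 to 1.22) against 1.90 FPKM (0.854 to 2.95). Of 6 compared rows of CDK inhibitors, CDKN2C, an inhibitor of CDK4 and CDK6, was past 1.5-fold, at 2.10 FPKM (0.955 to 3.24) against 4.10 FPKM (1.91 to 6.29). Of 17 checkpoint rows GADD45B, a stress-induced gene, was past it, at 7.0 FPKM (4.33 to 9.67) against 12.5 FPKM (7.39 to 17.7). RB and E2F partners (9 rows, median -0.07) and other cyclins with CDK5 activators (15 rows, median -0.07) had 0 rows past 1.5-fold, and their medians turned to 0.03 after median-of-ratios scaling. No row of these 6 pathway lists had bounds apart.

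Markers of cells that can divide in the brain, and of other tissue, mostly had higher values in the low group. All 9 compared rows of oligodendrocyte precursor markers were higher in the low group, 8 of 9 after either scaling, with a median of -0.63, 5 rows past 1.5-fold (3 after either scaling) and summed levels of 204 against 287 FPKM. The 5 rows were GPR17, BCAS1, OLIG2 and a pair of SOX10 rows. PDGFRA, CSPG4 and PTPRZ1 had differences of -0.16, -0.12 and -0.03, around the median of -0.10 over all compared rows. The list median was thus not shared by all of its markers, and SOX10 counts in it with 2 rows. All 12 microglial rows were higher there, with a median of -0.52, 3 past 1.5-fold (1 after either scaling) and sums of 445 against 639 FPKM. Of 12 rows of fibroblast and meningeal markers all were higher in low-growth pigs, 11 on median-of-ratios scaling, with a median of -1.32, 10 past 1.5-fold, 8 with bounds apart and sums of 82.8 against 246 FPKM. That list also holds ACTA2, TAGLN and PDGFRB, which mark smooth muscle and mural cells of vessels. ACTA2 and TAGLN were among the rows with bounds apart. Erythroid markers (4 rows, median -1.15, sums of 160.3 against 391.8 FPKM) and anterior pituitary markers (5 rows, median -1.03, sums of 385 against 748 FPKM) had the same direction. Lymphocyte markers had a median of -0.45 over 3 rows, with sums of 12.8 against 19.2 FPKM.

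Neuronal markers, at 1355 against 1405 FPKM in sum with a median of -0.05, and astrocyte markers, at 908 against 1055 FPKM with a median of -0.10, were closer to the median of all rows, and both medians turned above 0 under either scaling. Endothelial markers had a median of -0.27 over 6 rows, with sums of 42.6 against 51.7 FPKM. No marker row with an estimate was at 0 in both groups, and the astrocyte marker GFAP carried no estimate. The summed proliferation core was 39.6 against 49.1 FPKM, 1.24 times as high in the low group, and the sum of all rows was 1.21 times as high there. The part of these cell types in the core's difference was not tested.

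**Figure D4:**
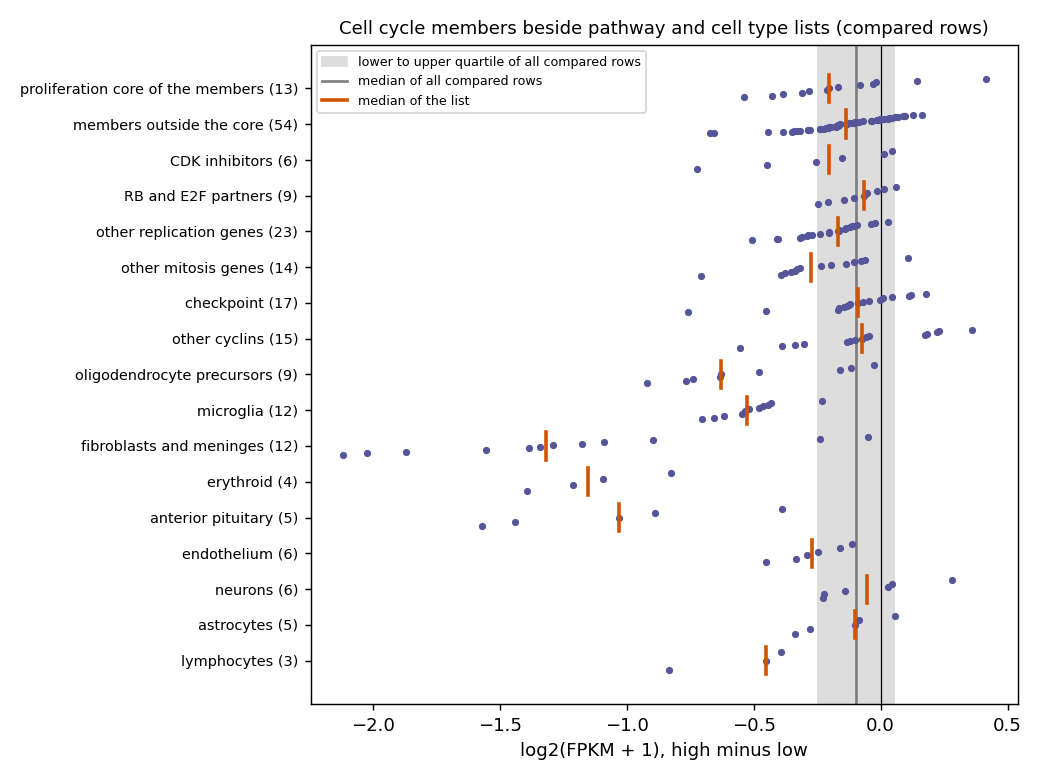
Each point is 1 compared gene row, placed by its log2(FPKM + 1) difference, high minus low, for the cell cycle rows, other pathway lists and cell type marker lists, with the number of rows. Orange bars are list medians, the shaded band runs from the lower to the upper quartile of all compared rows and the grey line is their median of -0.10. The proliferation core (median -0.20) lies far closer to that line than the fibroblast and meningeal markers (median -1.32).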

How the data were processed

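RNA-seq of the hypothalamus was analysed as the FPKM values that the authors deposited, 1 per gene row and group with bounds and a status, per the file headers. How the animals were combined and the level of the bounds were not given in the sources used here. The submitters' processing notes name TopHat2 2.0.5, Cufflinks 2.0.2 and build Sscrofa10.2, among other tools, without saying how each was run. Coordinates are as the file gives them, and whether starts count from 0 or 1 could not be checked. No sequence was used.

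Python 3.11.15, numpy 2.4.6 and pandas 2.3.3 were used. Rows needed status OK in both groups and, to be compared, a mean of at least 1 FPKM. A row was called at an FPKM + 1 ratio of at least 1.5, or where bounds did not overlap. Functions were tested on simulated data. Members and lists were chosen with earlier results of these data known. Named genes were the 10 members with the largest differences, the 10 highest and a fixed set. Members outside these sets were picked once values were known, to complete a count or a family. Roles were assigned after the names had been seen. Alternatives were pseudocounts of 0.1 and 0.5 FPKM, other filters, 2 scalings, a 2-fold threshold, and a z value from the bounds (each half-width taken as 2 SD, adjusted at 0.05). Leaving out the NIFK row was added after the data had been seen.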

Additional observations from a re-analysis of the deposited data

How the results depend on the processing

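With no depth given, its limits on these rows were not measured. The 2 cell cycle rows past 1.5-fold became 4 with a pseudocount of 0.1 FPKM (1439 of all compared rows), 0 after median-of-ratios scaling (907 rows), 0 after quantile normalization (883 rows) and 0 at a 2-fold threshold (391 rows). The count of rows with bounds apart was 0 under each alternative run, z included. The median difference of the cell cycle rows, -0.16, became -0.053 after median-of-ratios scaling and ran from -0.18 to -0.06 under the others run. Less the median of all compared rows, it hardly moved: -0.060 as deposited, -0.053 after median-of-ratios scaling and -0.059 after quantile normalization. The median difference of the proliferation core, -0.20, became -0.34 with a pseudocount of 0.1 FPKM. With the minimum mean raised to 5 FPKM, which left the 2 rows PCNA and CCNE1, it became -0.41. It was -0.12 with no minimum, -0.14 after median-of-ratios scaling and -0.17 after quantile normalization. The median over all rows was -0.11 with the 0.1 FPKM pseudocount and -0.13 at the 5 FPKM minimum. It was -0.013 with no minimum, 0.0006 after median-of-ratios scaling and -0.002 after quantile normalization. Less the median of all rows, the core stood at -0.10 as deposited, -0.14 after median-of-ratios scaling and -0.17 after quantile normalization. The cause of the other changes was not tested. Of 45 named rows, 38 kept the sign of the difference under both pseudocounts and both scalings, and 7 (CDK2, CDK5, CDK6, CCNE2, MCM2, PLK1 and PLK2) turned it under at least 1 scaling. No paired analysis was possible because the table used here holds group values, and for the same reason no animal could be left out.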

Other observations

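Besides the 97 named rows, 7 rows without a name in the file carry a cell cycle symbol in the reference table of identifiers. CDK16, a PCTAIRE kinase, was at 32.8 FPKM (22.2 to 43.4) in high-growth pigs and 40.4 FPKM (25.6 to 55.3) in low-growth pigs, close to the level of CDK5. CDK17 was at 18.8 against 19.5 FPKM, CENPC at 6.02 against 5.91 FPKM and the phosphatase gene CDC25A at 2.85 against 2.74 FPKM. BUB1, a spindle checkpoint kinase, was at 0.103 against 0.108 FPKM, and the condensin subunit NCAPH at 0.326 against 0.497 FPKM, both with lower bounds of 0. None of the 7 was past 1.5-fold or had bounds apart.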
